A study of Caenorhabditis elegans with 7 samples.

Results

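The genes described here are cwn-1 and scrt-1, 2 of the 3717 genes in a table of small RNA reads at splice junctions of Caenorhabditis elegans embryos. They were chosen by name, because earlier results of the same table showed more small RNA over their spliced junctions in rnp-2 mutants than in mog-2 or rnp-3 mutants. Levels in that contrast are therefore given as a description, with no test. The table holds 13 lines of cwn-1 and 8 of scrt-1, which make up 7 and 4 introns.

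As background, cwn-1 encodes a Wnt ligand, a secreted glycoprotein that binds Frizzled and Ror receptors and guides cell polarity and cell migration in the worm. The gene scrt-1 encodes a zinc finger protein named for its likeness to Scratch, a member of the Snail superfamily of transcription factors. Worms make many small RNAs by copying messenger RNAs with RNA-dependent RNA polymerases. A small RNA that reads across an exon-exon join comes from a template that had been spliced, while one that reads across an intron-exon boundary comes from one that had not. The genes rnp-2, rnp-3 and mog-2 encode components of the spliceosome, with rnp-2 related to U1 protein A, and rnp-3 and mog-2 to U2 proteins.

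All worms had the N2 background. Embryos were freed from adults with hypochlorite, and gel-purified small RNA was sequenced in 2 experiments. Wildtype and rnp-2(mg582) have 2 libraries, 1 per experiment, and their numbers are those of the experiments. The other genotypes have 1 library each, mog-2(ok1221) as well as rnp-3(ok1424) in experiment 1, and rnp-2(tm4058) in experiment 2. The labels do not state whether worms were grown separately for each library, so the spread behind every p-value may be technical.

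Library totals ran from 9901228 to 142819946 reads. The libraries of experiment 2 stood apart, with fewer junction reads for their size, and rnp-2(tm4058) most of all. That library was the largest and held 73843 spliced reads, the fewest of all. Values are therefore given both as deposited CPM, relative to the whole library, and as scaled CPM, relative to the bulk of listed junctions by TMM factors, of which the lowest was 0.0846, for rnp-2(tm4058), and the highest 2.97, for rnp-3(ok1424). Of 15 maternal and early embryo genes checked, 9 had listed junctions, with summed scaled CPM of 8.23 to 10.8 in the rnp-2 libraries and 8.98 to 9.41 in the other 4. None of 9 adult intestine and yolk genes was listed. The 4 listed neuron genes, of 7, summed to 25.2 to 28.2 in the rnp-2 libraries and 15.0 to 36.8 in the others. For the 2 listed muscle genes, of 5, the sums were 0.783 to 1.41 and 0.791 to 2.65. The 3 listed sperm genes, of 9, summed to 1.16 to 1.75 in the rnp-2 libraries and 1.97 to 3.57 in the others, and their part in the results was not tested. All these sums count small RNA over the named genes, and measure neither their messenger RNA nor the cells present. In whole embryos, fewer cells of a type and less small RNA per cell cannot be told apart.

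The gene cwn-1 (WBGene00000857) lies on chromosome II at 130983 to 133598 of WBcel235, on the minus strand, and no other annotated gene overlaps it. The cwn-1 transcript K10B4.6a.1 has 9 exons and 8 introns, of which intron 2 (132682 to 132727) is not among the lines used here. Its last intron, number 8, is spliced in K10B4.6a.1, while in the annotated isoform K10B4.6b the same stretch is part of the final exon.

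The 5′ splice sites of cwn-1 are shown because they are where the U1 snRNP pairs with an intron. Each line gives the last 5 bases of the exon and the first 10 bases of the intron from the deposited table, with the GT that opens the intron in capitals.
cwn-1 intron 1 (II:132821-133416, minus strand): atgagGTaacttttc
cwn-1 intron 3 (II:132517-132561, minus strand): tataaGTatgagtga
cwn-1 intron 4 (II:132398-132443, minus strand): cagggGTaatttgaa
cwn-1 intron 5 (II:132147-132199, minus strand): gacagGTaatttttt
cwn-1 intron 6 (II:131994-132051, minus strand): ttcagGTatattttg
cwn-1 intron 7 (II:131815-131860, minus strand): atctgGTatcaattt
cwn-1 intron 8 (II:131297-131700, minus strand): gtttgGTaaaatttt
The acceptor side of intron 8, where its reads are listed, has the last 10 bases of the intron and the first 5 of the exon, with the closing AG in capitals.
cwn-1 intron 8 acceptor: tcattttcAGctctg

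The gene scrt-1 (WBGene00016948) lies on chromosome I at 2568860 to 2571059, on the plus strand, with no other annotated gene over it. Its transcript C55C2.1.1 has 5 exons and 4 introns, all of them listed.

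All 7 of the cwn-1 introns begin with GTA. None begins with GTAAGT, the letters fully complementary to the U1 RNA at these positions, read on the gene's strand at the first 6 bases of the intron. Of the 4 introns of scrt-1, 3 begin with GTA and 1 with GTG, and 1 begins with GTAAGT. Among all 7678 listed introns, 15.0% begin with GTAAGT, 57.4% with GTA and 23.7% with GTG. These are descriptions of the letters and say nothing of how a site is used.

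Small RNAs over spliced cwn-1 junctions had 3.14 and 2.58 scaled CPM in wildtype 1 and 2, 15.7 and 10.8 in rnp-2(mg582) 1 and 2, 9.69 in rnp-2(tm4058), 2.93 in mog-2(ok1221) and 2.11 in rnp-3(ok1424). All 3 rnp-2 libraries lay above the other 4, which spanned 2.11 to 3.14. The means were 2.86 ± 0.395 in wildtype (SD, n = 2), 13.3 ± 3.47 in rnp-2(mg582) (SD, n = 2) and 2.52 ± 0.584 over the mog-2 and rnp-3 libraries (SD, n = 2). Small RNAs over spliced scrt-1 junctions had 2.55 and 1.85 scaled CPM in wildtype, 9.91 and 10.6 in rnp-2(mg582), 9.52 in rnp-2(tm4058), 1.03 in mog-2(ok1221) and 1.22 in rnp-3(ok1424). Here the libraries formed 3 steps that did not overlap, with rnp-2 highest, wildtype next, and mog-2 and rnp-3 lowest. The scrt-1 means were 2.20 ± 0.499 in wildtype, 10.3 ± 0.490 in rnp-2(mg582) and 1.12 ± 0.139 over the mog-2 and rnp-3 libraries (SD, n = 2 each). The mog-2 and rnp-3 libraries lay below the other 5 for scrt-1, as for 7.21% of genes, and below both wildtype libraries, as for 21% of genes. For cwn-1 neither held, since mog-2(ok1221) lay between the wildtype libraries.

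**Figure D1:**
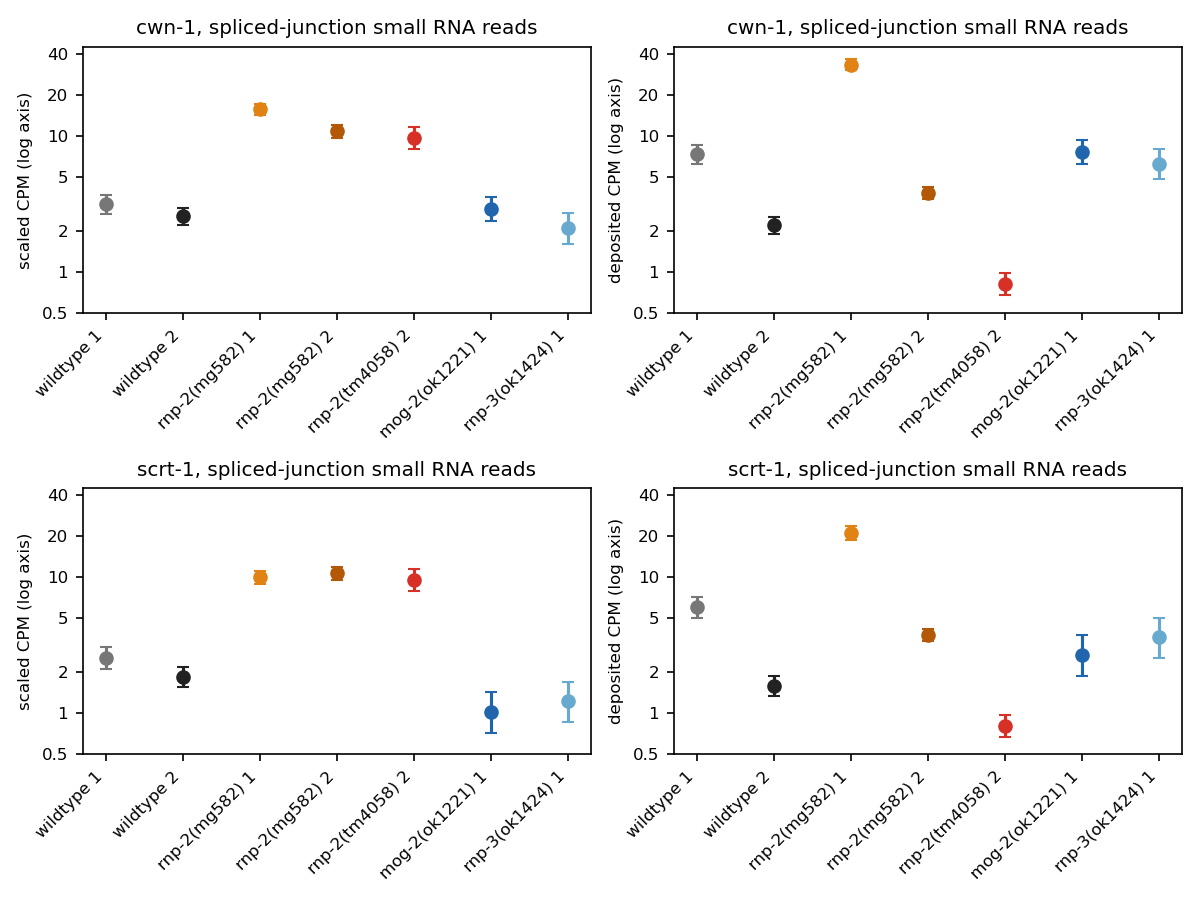
Spliced-junction small RNA of cwn-1 (top) and scrt-1 (bottom) in each of the 7 libraries, as scaled CPM (left) and as deposited CPM (right), on log axes. Points are single libraries and bars are exact 95% Poisson intervals of their reads. On the left all 3 rnp-2 libraries lie above the other 4, and on the right rnp-2(tm4058) is the lowest of all 7.

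As a share of the whole library the picture differed for rnp-2(tm4058). Deposited CPM of cwn-1 were 7.39 in wildtype 1, 33.4 in rnp-2(mg582) 1, 7.65 in mog-2(ok1221) and 6.26 in rnp-3(ok1424). In experiment 2 they were 2.22 in wildtype 2, 3.84 in rnp-2(mg582) 2 and 0.819 in rnp-2(tm4058). For scrt-1 they were 6.001, 21.1, 2.68 and 3.64 in the experiment 1 libraries in the same order, and 1.58, 3.76 and 0.805 in those of experiment 2. Within each experiment both genes were higher in rnp-2(mg582) than in wildtype on either scale, and in rnp-2(tm4058) they were higher than in wildtype 2 as scaled CPM and lower as deposited CPM.

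Set against the wildtype library of the same experiment, cwn-1 in scaled CPM was 5.01 times as high in rnp-2(mg582) 1 (counting interval 4.17 to 6.04), 4.19 times in rnp-2(mg582) 2 (3.51 to 5.01) and 3.75 times in rnp-2(tm4058) (2.96 to 4.74). In deposited CPM these ratios were 4.52, 1.73 and 0.369. The mog-2(ok1221) library had 0.933 times the wildtype level of cwn-1 (0.718 to 1.21), an interval that includes 1, and rnp-3(ok1424) had 0.670 times (0.491 to 0.906), while as deposited CPM the latter ratio was 0.847 with an interval that includes 1 (0.620 to 1.14). For scrt-1 the scaled ratios were 3.89 (3.15 to 4.83), 5.75 (4.71 to 7.04) and 5.16 (3.996 to 6.65) in the 3 rnp-2 libraries in the same order, and 3.51, 2.38 and 0.508 in deposited CPM. The scrt-1 ratios of mog-2(ok1221) and rnp-3(ok1424) were 0.402 (0.268 to 0.589) and 0.479 (0.321 to 0.700) as scaled CPM, and 0.446 and 0.606 as deposited CPM. The scrt-1 intervals of both U2 mutants lay below 1 on each scale, while that of cwn-1 in mog-2(ok1221) included 1. These intervals cover counting error in single libraries without replicates. They are therefore a description of those libraries and no test of the genotypes.

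The log2 difference between rnp-2(mg582) and wildtype was 2.02 for cwn-1 and 2.01 for scrt-1, the rises of rank 24 and 25 among 3551 genes tested. In limma 3.8% of genes were called higher in this comparison and 8.36% in either direction. Between the 3 rnp-2 libraries and the 2 libraries of the U2 mutants mog-2 and rnp-3 the log2 difference was 2.04 for cwn-1 (rank 21) and 2.70 for scrt-1 (rank 5), where 3.97% of genes were called higher and 7.86% in either direction. The 2 comparisons share the rnp-2(mg582) libraries and their scaling. Within experiment 1 alone, rnp-2(mg582) 1 exceeded the U2 mutants by 2.44 on the log2 scale for cwn-1 and by 2.68 for scrt-1, with 9 and 4 genes of larger difference. Across all tested genes 9.12% had all 3 rnp-2 libraries above the other 4 in scaled CPM and 0.394% in deposited CPM, and cwn-1 and scrt-1 are in the first of these groups only. With library size alone the log2 difference between rnp-2 and the U2 mutants was -0.36 for cwn-1 and 0.44 for scrt-1, where the median of all genes was -0.93.

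The order of genes within a library does not depend on its scaling. Reads were not divided by length, so ranks are read here between libraries and not between genes. Between libraries, ranks and rates per listed read are relative to the other listed genes, as scaled CPM is. They are therefore no separate check of scaled CPM against deposited CPM. By spliced reads cwn-1 ranked 63, 98 and 112 among 3717 genes in rnp-2(mg582) 1, rnp-2(mg582) 2 and rnp-2(tm4058). It ranked 342 and 414 in wildtype 1 and 2, 366 in mog-2(ok1221) and 468 in rnp-3(ok1424). The ranks of scrt-1 were 104, 102 and 114 in the rnp-2 libraries, 406 and 549 in wildtype, 790 in mog-2(ok1221) and 682 in rnp-3(ok1424). Per 100000 listed spliced reads, cwn-1 had 158 to 274 in the rnp-2 libraries and 33.3 to 51.9 in the others, and scrt-1 had 156 to 175 and 15.0 to 42.1.

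**Figure D2:**
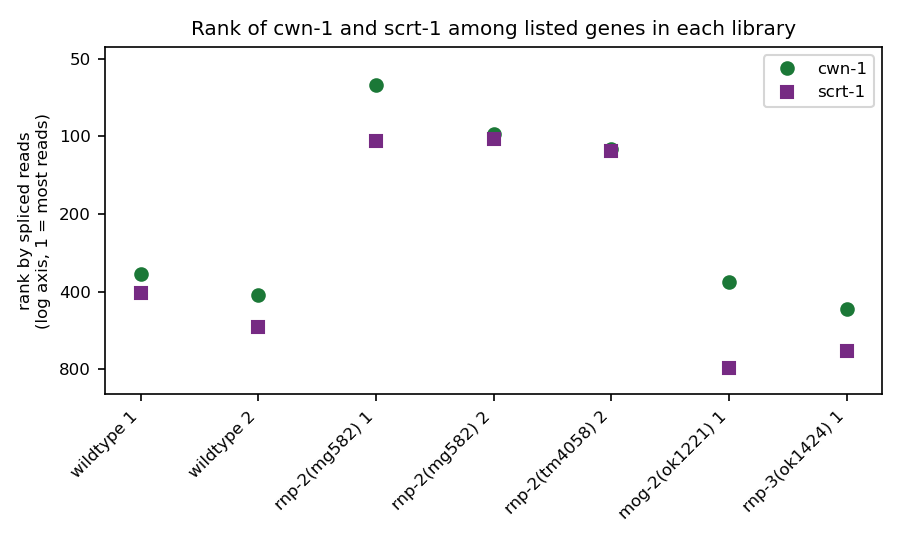
Rank of cwn-1 (circles) and scrt-1 (squares) among 3717 genes by spliced reads in each library, on a log axis with high ranks at the top. Both genes rank between 63 and 114 in the 3 rnp-2 libraries and between 342 and 790 in the other 4.

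The ratio of cwn-1 to scrt-1 reads also needs no scaling. It was 1.23 and 1.40 in wildtype 1 and 2, 1.59 and 1.02 in rnp-2(mg582) 1 and 2, 1.02 in rnp-2(tm4058), 2.86 in mog-2(ok1221) and 1.72 in rnp-3(ok1424). The share of cwn-1 in the reads of both genes was 74.1% in mog-2(ok1221) (Wilson interval 66.1 to 80.7%), above the intervals of both wildtype libraries (49.3 to 60.9% and 53.0 to 63.5%). The 2 rnp-2(mg582) libraries differed from each other, at 61.3% (57.9 to 64.7%) and 50.5% (46.8 to 54.2%).

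In both genes the small RNA lay mainly over the last intron of the transcript, already in wildtype. Intron 8 of cwn-1 held 120 of 154 spliced reads in wildtype 1 (77.9%, Wilson interval 70.7 to 83.7%) and 155 of 196 in wildtype 2 (79.1%, 72.9 to 84.2%). Intron 7 next to it held 11.04% and 9.18%, and each of the 5 upstream introns at most 6.12%. Intron 4 of scrt-1 held 74 of 125 reads in wildtype 1 (59.2%, 50.4 to 67.4%) and 91 of 140 in wildtype 2 (65.0%, 56.8 to 72.4%), intron 2 held 24.8% and 21.4%, and introns 1 and 3 each held at most 8.80%. Of 405 genes with at least 4 listed junctions and 50 wildtype reads, the median gene had 18.1% of its wildtype reads at the 3′-most listed junction (quartiles 7.43 and 32.8%). Only 6 of the 405 had a larger share there than cwn-1 (78.6% over both libraries), and 20 had a larger share than scrt-1 (62.3%).

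**Figure D3:**
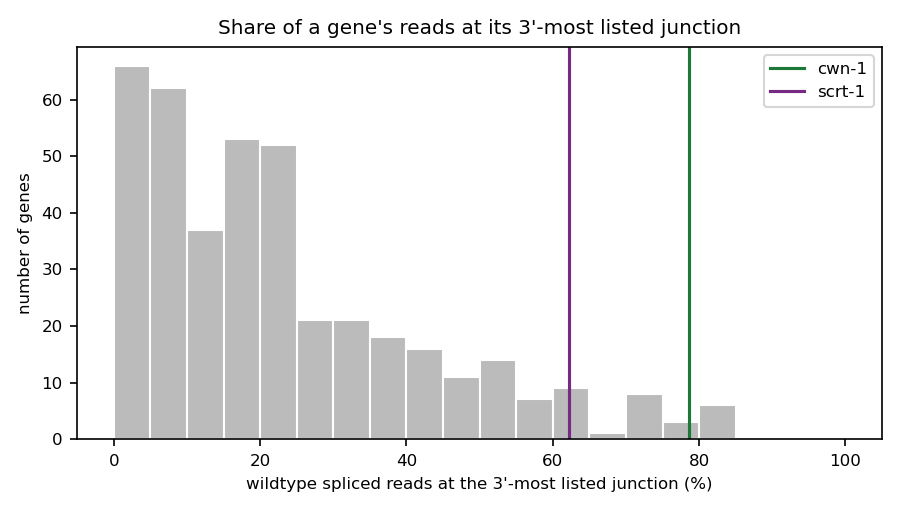
Number of genes by the share of their wildtype spliced reads at the 3′-most listed junction, for 405 genes in steps along the horizontal axis. Vertical lines mark cwn-1 at 78.6% and scrt-1 at 62.3%, both in the upper tail of genes whose median is 18.1%.

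In scaled CPM, intron 8 of cwn-1 had 2.45 and 2.04 in wildtype, 9.78 and 7.17 in rnp-2(mg582), 6.29 in rnp-2(tm4058), 2.02 in mog-2(ok1221) and 1.73 in rnp-3(ok1424). The other 6 introns together had 0.694 and 0.540 in wildtype, 5.94 and 3.65 in rnp-2(mg582), 3.39 in rnp-2(tm4058), 0.909 in mog-2(ok1221) and 0.374 in rnp-3(ok1424). Both parts of the gene were higher in all 3 rnp-2 libraries than in the other 4, and the upstream part by a larger factor. Introns 1, 3, 4 and 6 of this part are listed only through rnp-2(mg582) 1, which can enlarge that factor. Intron 7 alone went from 17 and 18 reads in wildtype to 95, 61 and 26 in the rnp-2 libraries, with 15 in mog-2(ok1221) and 11 in rnp-3(ok1424). Introns 1, 3, 4, 5 and 6 had 21 to 64 reads each over all 7 libraries, and in rnp-3(ok1424) all 5 had 0 reads, where 3 of the 62 cwn-1 reads would allow a share of up to 4.84%.

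The share of cwn-1 reads at intron 8 was 62.2% (57.8 to 66.4%), 66.3% (61.3 to 71.0%) and 65.0% (56.0 to 73.0%) in rnp-2(mg582) 1, rnp-2(mg582) 2 and rnp-2(tm4058). All 3 were below both wildtype shares, and the intervals of both rnp-2(mg582) libraries lay below the 72.9% at which that of wildtype 2 began. The share was 69.0% (59.4 to 77.2%) in mog-2(ok1221) and 82.3% (71.0 to 89.8%) in rnp-3(ok1424). Pooled, it went from 78.6% in wildtype to 64.1% in rnp-2, a difference of -14.5 percentage points. Since introns 1, 3, 4 and 6 are listed only through rnp-2(mg582) 1, the choice of lines can enlarge this fall. Among 370 genes with at least 50 reads in both pools the median difference at the 3′-most junction was 0.132 points (quartiles -3.44 and 4.09), and 11 genes had a lower difference than cwn-1. In scrt-1 the share of intron 4 went the other way, from 62.3% to 70.4%, with 51 genes of higher difference. Its shares were 70.0% (64.7 to 74.9%), 69.0% (64.0 to 73.6%) and 75.7% (67.1 to 82.6%) in the rnp-2 libraries, 57.1% (40.9 to 72.0%) in mog-2(ok1221) and 69.4% (53.1 to 82.0%) in rnp-3(ok1424), and all of these intervals overlap those of both wildtype libraries.

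**Figure D4:**
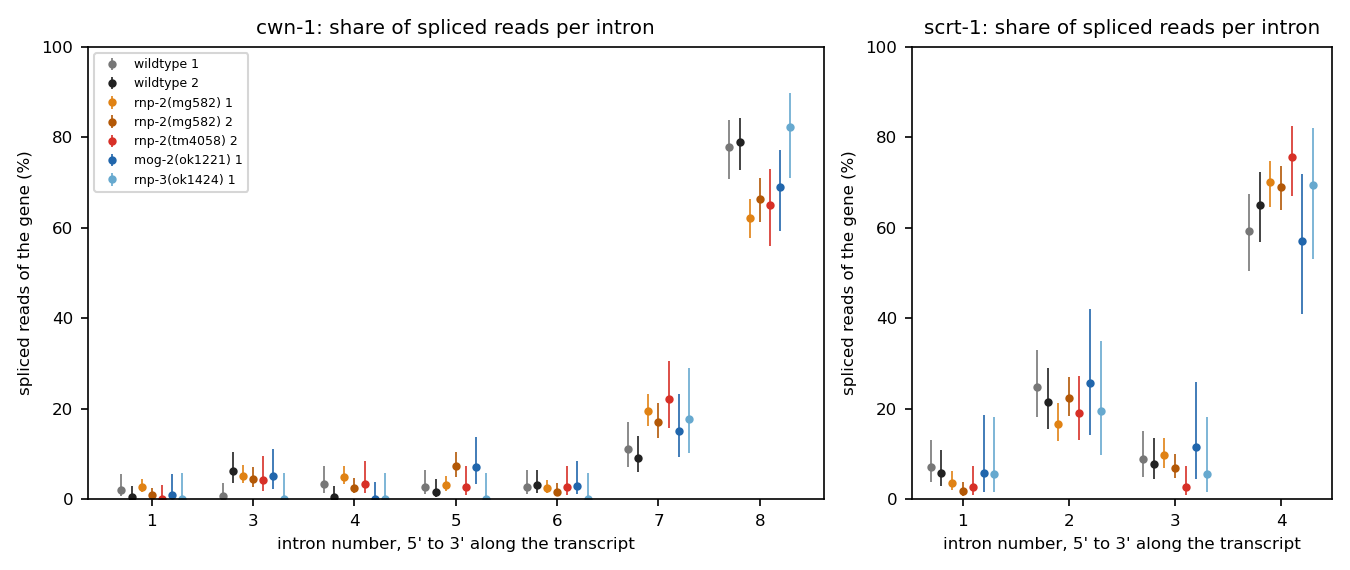
Share of the spliced reads of cwn-1 (left) and scrt-1 (right) at each listed intron, numbered from the 5′ end of the transcript, in each library. Points are single libraries with 95% Wilson intervals. In every library the last intron holds most reads, and at intron 8 of cwn-1 the 3 rnp-2 libraries (62.2 to 66.3%) lie below both wildtype libraries (77.9 and 79.1%).

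Of the 11 introns of both genes, 9 had all 3 rnp-2 libraries above the other 4 in scaled CPM, 6 of 7 in cwn-1 and 3 of 4 in scrt-1. This held for 8.32% of the 7273 introns tested. In deposited CPM none of the 11 did. The exceptions in scaled CPM were the first intron of each gene. Every listed line had at least 0.505 CPM in some library. Introns 3, 4 and 6 of cwn-1, which are among the 9, and the first intron of each gene reached it only in rnp-2(mg582) 1. They are thus listed only through a library in which both genes were high, so the count of 9 is a description. The 8.32% comes from lines selected in the same way. Intron 1 of cwn-1 had 13, 3 and 0 reads in the rnp-2 libraries and 21 reads in all. Intron 1 of scrt-1 had 0.184 and 0.105 scaled CPM in wildtype, 0.355 and 0.181 in rnp-2(mg582), and 0.248 in rnp-2(tm4058), so wildtype 1 lay just above rnp-2(mg582) 2. At intron 4 of scrt-1 the values were 1.51 and 1.20 in wildtype, 6.94 and 7.32 in rnp-2(mg582), 7.20 in rnp-2(tm4058), 0.586 in mog-2(ok1221) and 0.849 in rnp-3(ok1424).

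Unspliced reads were nearly absent from both genes. Over all 7 libraries cwn-1 had 6 unspliced and 1475 spliced reads, a share of 0.405% (Wilson interval 0.186 to 0.881%). The gene scrt-1 had 6 and 1110, a share of 0.538% (0.247 to 1.17%), all 6 at intron 4. Over all listed genes 7.67% of junction reads were unspliced, and the median over 523 genes with at least 500 spliced reads was 1.19%. Of these 523 genes, 23.5% had a smaller share than cwn-1 and 28.3% a smaller share than scrt-1. Unspliced reads were counted at both ends of an intron, and spliced reads once. For merged introns the unspliced reads of all were counted beside the spliced reads of 1. This can raise the shares over all genes but not those of cwn-1 and scrt-1, which had no merged intron. The donor end of cwn-1 intron 8 has no line, so unspliced reads there are not counted. In the 3 rnp-2 libraries together cwn-1 had 3 unspliced reads beside 963 spliced ones, and scrt-1 had 4 beside 774, against 1 beside 350 and 1 beside 265 in wildtype. In the mog-2 and rnp-3 libraries together cwn-1 had 2 beside 162 (1.22%) and scrt-1 had 1 beside 71 (1.39%), beside 0.311% and 0.514% in the rnp-2 libraries. No library had more than 2 unspliced reads in either gene, so a difference in retention between genotypes was not detectable at this depth.

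The genes whose log2(scaled CPM + 0.5) followed cwn-1 most closely over the 7 libraries, among 838 with a mean of at least 1, were F56D2.3 (Pearson r = 0.98), T20B3.1 (0.98), acc-4 (0.97), Y69A2AR.14 (0.97) and cec-8 (0.97). For scrt-1 they were cec-8 (0.99), C34B2.9 (0.98), zig-8 (0.98), F47G6.3 (0.97) and T20B3.1 (0.96). Between cwn-1 and scrt-1 r was 0.96, and scrt-1 ranked 8 for cwn-1. These values over 7 libraries are a description, since all points share their library and its scaling. The gene cec-8, a chromodomain gene, had 1.18 ± 0.0310 in wildtype (SD, n = 2), 3.21 ± 0.184 in rnp-2 (SD, n = 3) and 0.854 ± 0.0888 in the U2 mutants (SD, n = 2). T20B3.1 had 0.389 ± 0.0276, 19.4 ± 1.02 and 0.438 ± 0.0434 in these groups, and F47G6.3 had 0.208 ± 0.0520, 16.1 ± 3.36 and 0.137 ± 0.0971. The immunoglobulin domain gene zig-8 differed much less, with 2.76 ± 0.0565, 3.798 ± 0.0636 and 2.06 ± 0.0306.

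The nearest listed genes on the chromosome were tested in the same fits. C50D2.10, 29922 bp to the left of cwn-1, had 1.41 and 2.36 scaled CPM in wildtype and 1.65 and 3.13 in rnp-2(mg582) (log2 0.26, adjusted p = 0.721). T25D3.3, 18985 bp to its right, had 0.612 and 0.250 in wildtype and 0.161 and 0.0301 in rnp-2(mg582) (log2 -0.63, adjusted p = 0.143). Beside scrt-1, Y23H5B.3 lies 22665 bp to the left (log2 -0.44, adjusted p = 0.322) and spe-47, a sperm gene, 46470 bp to the right (log2 0.40, adjusted p = 0.358). None of these 4 neighbours passed in limma.

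Of a list of 41 Wnt pathway genes, 11 had listed junctions, and all 11 were tested. The list was chosen with earlier results of these data known, so counts over it are a description. Apart from cwn-1, 1 of the other 10 rose and 0 fell between wildtype and rnp-2(mg582), where 3.8% of all genes rose and 4.56% fell. The median log2 difference of the 10 was 0.07 beside -0.02 over all genes. This was axl-1, which encodes an Axin-like protein of the beta-catenin destruction complex. It had 0 and 0.0791 scaled CPM in wildtype 1 and 2, 0.904 and 0.723 in rnp-2(mg582), 0.497 in rnp-2(tm4058), 0.117 in mog-2(ok1221) and 0.170 in rnp-3(ok1424). The rnp-2 libraries lay above the other 4, as for 9.12% of all tested genes, but overlapped them in deposited CPM. The call of axl-1 rested on 6 wildtype and 52 rnp-2(mg582) reads (log2 1.28 ± 0.18 SE, adjusted p = 0.00568 in limma). This gene passed between rnp-2 and the U2 mutants too (log2 0.90, adjusted p = 0.0146 in limma). Every listed line had at least 0.505 CPM in some library, which axl-1 reached in neither wildtype library. It is thus listed only through mutant libraries, so the test for its rise over wildtype is not independent of its listing. Without wildtype 1 the call was lost (log2 1.09, adjusted p = 0.127), and with library size alone it was lost at a log2 difference of 1.34, as all calls were.

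The most abundant other members did not pass. The Axin gene pry-1 had 6.51 ± 2.22 scaled CPM in wildtype and 3.50 ± 1.75 in rnp-2(mg582) (SD, n = 2 each, adjusted p = 0.240 in limma). In limma with experiment as a block pry-1 passed as lower (adjusted p = 0.00371), as did the Dishevelled gene dsh-2 (adjusted p = 0.0413). The latter had 24 wildtype and 2 rnp-2(mg582) reads. By spliced reads, dsh-2 reached the 0.505 CPM of a listed line only in wildtype 1. The test for its fall is thus not independent of its listing. The other listed Wnt ligand, egl-20, had 2.69 ± 0.395 and 2.18 ± 1.26 (SD, n = 2 each, adjusted p = 0.653 in limma). The gene plr-1, which encodes a transmembrane ubiquitin ligase that lowers Frizzled at the cell surface, had 4.37 ± 1.82 and 2.68 ± 0.0429 (SD, n = 2 each, adjusted p = 0.356 in limma). No Frizzled receptor of the list was among the listed genes.

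Of 33 developmental zinc finger factors, 6 had listed junctions. Counts over this list are likewise a description, since it too was chosen with earlier results known. Apart from scrt-1, none of the other 5 rose and 2 fell in rnp-2(mg582), where 4.56% of all genes fell, with a median log2 difference of -0.13. Both are Krüppel-like factors. The gene klf-3, which acts in fat metabolism, had 2.35 and 1.52 scaled CPM in wildtype, 0.323 and 0.452 in rnp-2(mg582), 0.166 in rnp-2(tm4058), 1.76 in mog-2(ok1221) and 0.781 in rnp-3(ok1424) (log2 -1.44 ± 0.25 SE, adjusted p = 0.0126 in limma), and it was also lower in rnp-2 than in the U2 mutants (adjusted p = 0.0414), where 3.89% of genes were. The gene klf-1 had 1.65 and 2.60 in wildtype, 0.291 and 0.753 in rnp-2(mg582), 0.662 in rnp-2(tm4058), 3.93 in mog-2(ok1221) and 0.577 in rnp-3(ok1424) (log2 -1.37 ± 0.31 SE, adjusted p = 0.0327 in limma). The direction of both differences was opposite to that of scrt-1. For klf-1 a low level was not particular to rnp-2, since rnp-3(ok1424) lay below rnp-2(tm4058) and rnp-2(mg582) 2. The call of klf-3 was lost without wildtype 1 (adjusted p = 0.169), rnp-2(mg582) 1 (0.140) or rnp-2(mg582) 2 (0.0619), where its log2 difference was -1.10, -1.24 and -1.62. That of klf-1 was lost without wildtype 1 (adjusted p = 0.165), wildtype 2 (0.184), rnp-2(mg582) 1 (0.226) or rnp-2(mg582) 2 (0.0559), and with no filter on low values (0.0706). Its log2 difference in these 5 fits was -1.54, -1.11, -0.97, -1.80 and -1.38.

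The other 3 did not pass in limma. The gene lin-13 had 2.05 ± 0.0125 scaled CPM in wildtype and 1.89 ± 0.348 in rnp-2(mg582) (adjusted p = 0.861), lir-2 had 0.718 ± 0.121 and 0.729 ± 0.163 (adjusted p = 0.986), and lsy-2 had 0.0636 ± 0.00332 and 0.0161 ± 0.0228 (adjusted p = 0.493), each with n = 2 per group and SD. No other gene of the Snail superfamily in the list was among the listed genes.

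**Figure D5:**
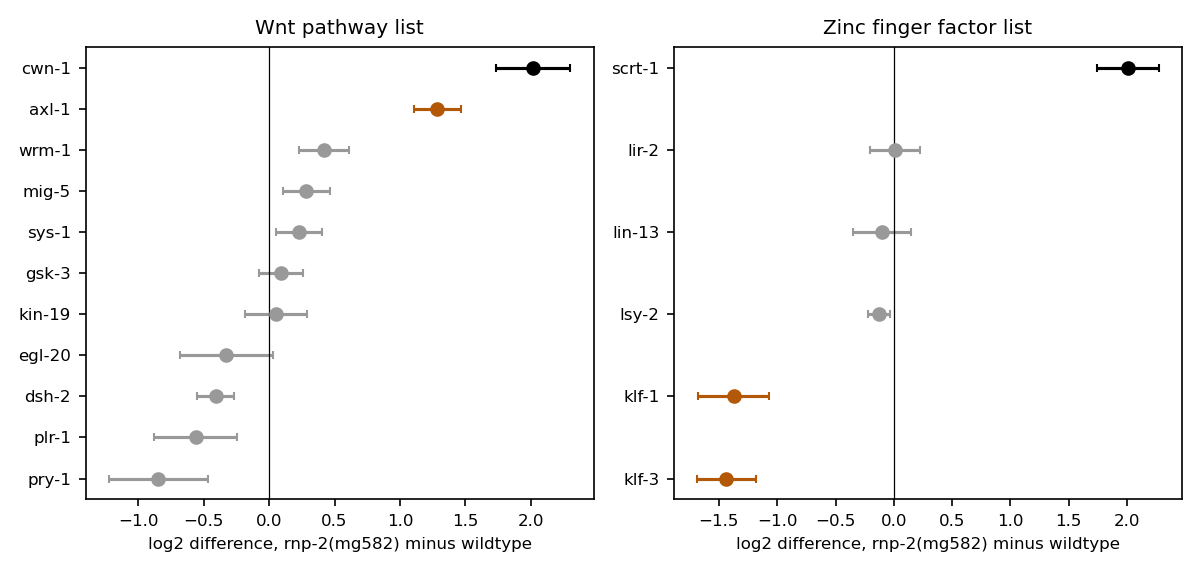
Log2 difference between rnp-2(mg582) and wildtype, with its standard error, for the listed genes of the Wnt pathway list (left) and the zinc finger factor list (right). Black points are cwn-1 (2.02) and scrt-1 (2.01), brown points passed an adjusted p of 0.05 in limma (axl-1, klf-1 and klf-3), and grey points did not.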

How the data were processed

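Small RNA libraries of 5 genotypes were compared at the introns of cwn-1 and scrt-1. The authors deposited CPM (each library's reads scaled to a common total) at intron-exon and exon-exon junctions, read here as unspliced and spliced from the column names. Per the submitters' processing notes STAR and SAMtools were used. How each was run, on which build, and how strand and multiply aligned reads were handled is not given in the sources used here. In every library all deposited CPM values were whole multiples of 1 step, within 1e-06 reads, which gave back the reads and the library totals.

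The 14533 lines with values (24 lines without values were not analysed here) were joined into 7678 introns. For spliced reads, near-identical introns within 1 gene (20 or more reads each, a difference of no more than 5% of the higher sum) were treated as 1. No intron of cwn-1 or scrt-1 was merged. Positions match introns of the WBcel235 annotation and are given 1-based on that build. Spliced reads were summed per gene and scaled by TMM factors (edgeR 4.0.16), here called scaled CPM. Genes with low values were left out with filterByExpr (minimum count 10, minimum total 15), which left 3551 of 3717 genes. The lines were already selected as deposited, since each had at least 0.505 CPM in some library. A single read was 0.101 CPM in rnp-3(ok1424) and 0.0070 CPM in rnp-2(tm4058), so that level took more reads in the latter. Shares of genes or introns given here are shares of what was listed in this way. Tests were limma 3.58.1 with a trended prior on log2(scaled CPM + 0.5), run in R 4.3.3, with p-values adjusted by Benjamini-Hochberg over all genes tested, and checked on simulated data. One fit had a coefficient per genotype and another had 3 classes (wildtype, rnp-2, and mog-2 with rnp-3), each over all 7 libraries. A genotype with 1 library is assumed to vary like the others. Differences on the log2(value + 0.5) scale understate changes of low values. Intervals are 95% Wilson or exact ones and cover counting error only.

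The members and the gene lists were chosen with earlier results of these data known. Genes named besides the members follow a rule: for each member the 5 genes of highest Pearson correlation, for each list the genes past adjusted p of 0.05 and the 3 others of highest mean, and the nearest listed gene on each side. Equal experiment numbers in the sample titles mark libraries of the same experiment. The deviations of wildtype 1 and rnp-2(mg582) 1 from their group means had r = 0.38 across 3551 genes. Experiment as a block, other scalings, pseudocounts and filters, edgeR and DESeq2 1.42.0 on the recovered reads and leaving out each library were the alternatives.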

Additional observations from a re-analysis of the deposited data

How the results depend on the processing

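The number of genes called in rnp-2(mg582) against wildtype was 297, all of which were also among the 725 called with experiment as a block. It was 0 with library size alone (93 at unadjusted p under 0.05), 74 with a mean of at least 5 CPM, 184 in DESeq2, and between 1 (without wildtype 1) and 302 when a library was left out, with 97 without rnp-2(mg582) 1, 105 without wildtype 2 and 141 without rnp-2(mg582) 2. The number for the rnp-2 libraries against mog-2(ok1221) and rnp-3(ok1424) was 279. It was 18, all lower, with library size alone, 68 with a mean of at least 5 CPM, 153 with experiment as a block, and between 159 (without rnp-2(mg582) 2) and 338 when a library was left out. The counts over the lists include cwn-1 and scrt-1, which were chosen for these values, so their part in them is no sign of stability. With cwn-1, the Wnt list had 2 called, 0 with library size alone, 1 with a mean of at least 5 CPM, 4 with the block and 0 to 2 without a library. Without it, these were 1, 0, 0 (2 genes tested), 3 and 0 to 1. With scrt-1, the zinc finger list had 3 called, 0 with library size alone, 1 with a mean of at least 5 CPM, 3 with the block and 0 to 3 without a library. Without it, these were 2, 0, no value (0 genes tested), 2 and 0 to 2.

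The log2 differences of cwn-1 and scrt-1 between rnp-2(mg582) and wildtype were 1.39 and 1.38 with library size alone. Leaving out a library gave 1.79 to 2.32 for cwn-1 and 1.84 to 2.18 for scrt-1. Between rnp-2 and the U2 mutants cwn-1 reversed to -0.36 with library size alone and was 2.44 within experiment 1 and 1.84 to 2.24 without a library. The scrt-1 difference was 0.44 with library size alone, 3.05 and 2.37 with pseudocounts of 0.1 and 1, 2.92 with a mean of at least 5 CPM, 2.80 with the block and 2.52 to 2.86 without a library. The cause of these shifts was not tested. From the acceptor ends alone the wildtype share at the last intron was 78.6% in cwn-1 and 62.3% in scrt-1, as reported, since joined ends hold equal spliced reads. From the donor ends alone scrt-1 gave 62.3% again, and cwn-1 gave no value, because intron 8 has no line at that end. Depth was lowest for scrt-1 in mog-2(ok1221), with 35 reads.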
